A study of Homo sapiens with 6 samples.

Results

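The ATP-binding cassette (ABC) genes were followed in stably transfected Hep3B, an established line from a human liver cancer. Members were all genes that the annotation of the HG-U133 Plus 2.0 array names ABCA, ABCB, ABCC, ABCD, ABCE, ABCF or ABCG followed by a number, without pseudogene symbols. This rule gave 42 of the 19775 genes named on the array, covered by 96 probe sets. It used no measured value, but members and role lists were chosen with earlier results of these data known. Each gene was represented by its brightest probe set over all 6 arrays. The control group was clone 2 of Hep3B cells with the plasmid pU6, and the other group was clone D20 with the plasmid siSDHB, directed at SDHB, which encodes a subunit of succinate dehydrogenase, with 3 arrays (A, B and C) per clone. Both clones were grown in the same medium with 400 µg/ml of G418 until nearly confluent, so selection with G418 was common to both groups. Each group was a single clone, so silencing and clone cannot be told apart. Separate cultures are not named for the arrays of a clone, so p-values measure only the spread between these arrays, which may be technical. SDHB itself was not analysed here.

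ABC proteins bind and hydrolyse ATP, and most of them use that energy to move a substrate across a membrane. In the hepatocyte some sit in the canalicular membrane and export bile salts, phospholipid, bilirubin conjugates and sterols into bile, others return organic anions to the blood, and a further group pumps drugs out of the cell. Subfamily A and G members move cholesterol and phospholipid to lipoproteins, several B members lie in mitochondria, the D members serve mostly peroxisomes, and the E and F members have no membrane domain and act with the ribosome.

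The trimmed mean signal was 500.1 on every array, the median between 77.5 and 92.2, and array pairs correlated over probe sets, which are no replicates, with Pearson's r of 0.943 to 0.957 within a clone and 0.908 to 0.919 between clones. The ratio of the 3' to the 5' control probe set of GAPDH was 1.08 to 1.15 in control and 1.11 to 1.25 in D20 arrays. For beta-actin the ratio was 1.42 to 1.90 and 1.40 to 1.68. The number of arrays limits the precision. Hepatocyte markers were measured in both clones, and most were lower in D20. ALB, albumin, stood at 43678 ± 1275 (SD, n = 3) in control arrays and at 43935 ± 3964 in D20, although 1 of its 3 further tested probe sets was called higher and 1 lower, while AFP, alpha-fetoprotein, went from 20569 ± 643 to 403 ± 54.0. Of 13 hepatocyte markers 10 were called lower and 2 higher in D20, where 20.8% of all genes tested were called lower and 23.7% higher. The summed signal of the hepatocyte markers was 329912 to 338088 in control arrays and 144442 to 157120 in D20 arrays. Of 7 endothelial markers 5 and of 5 blood cell markers 3 had a mean below a signal of 43.2, the level of the filter on dim probe sets. The endothelial markers summed to 148 to 238 in the control and 296 to 496.5 in D20, and the only one tested, PECAM1, rose (62.5 ± 38.3 to 213 ± 41.1, SD, n = 3; log2 fold change 1.63; limma, Benjamini-Hochberg adjusted p = 0.0042). The blood cell markers summed to 268 to 389 and 148 to 299.6, and neither of the tested ones was called. The 8 fibroblast markers summed to 514 to 678 in the control clone and 3718 to 4530 in D20, of which COL1A1 alone had 3780.0 ± 407 in D20 and 1.23 ± 0.503 in the control. Of the 6 fibroblast markers tested COL1A1 rose, LUM fell (log2 fold change -2.89; limma, Benjamini-Hochberg adjusted p = 5.9e-04) and 4 were not called. The control mean of COL1A1 and the D20 mean of LUM (8.3) lay below the filter level. Each of these genes so passed the filter with the help of the other clone. All marker values are those of the brightest probe sets. Of the 3 further tested probe sets of COL1A1 only 1 was called higher, and the 1 further tested probe set of PECAM1 was not called. The 6 biliary markers summed to 20749 to 21461 and 21510 to 23966, with 2 called higher and 2 lower. The part of these marker changes in the ABC results was not tested.

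Nearly as many ABC genes rose as fell in D20. Of the 42 members 28 were bright enough to be tested, and 9 of them were called higher, 10 lower, and 9 did not pass the test (limma, Benjamini-Hochberg adjusted p below 0.05 over all probe sets tested). ABCC11, called higher and at least 2-fold, and ABCC13, which did not pass, were bright enough only with the help of their D20 arrays. Among all 13781 genes tested, each by its brightest probe set, 23.7% were called higher and 20.8% lower, together 44.5%, and of all probe sets tested 36.5% were called. At least 2-fold, on the scale of log2(signal + 16) used for every log2 fold change here, 6 members rose and 5 fell, where 10.8% of all genes rose and 6.57% fell. The median log2 fold change, D20 minus control, was 0.26 over the members and 0.04 over all genes. Arrays of the clones did not overlap for 22 of the 28 members, against 54.1% of all genes. D20 lay above in 11 of them (28.8% of all genes) and below in 11 (25.3%). Scaling the arrays on the poly-A spike-in controls raised the median of all genes to 0.25 and that of the members to 0.48, and with it 11 members rose and 7 fell. Median centring gave 8 and 11, with a members' median of 0.14. Calls that were higher made up 53.5% of all called probe sets, 73.2% with spike-in scaling and 42.0% with median centring. In bulk RNA, fewer cells of a type and less RNA per cell cannot be told apart.

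**Figure D1:**
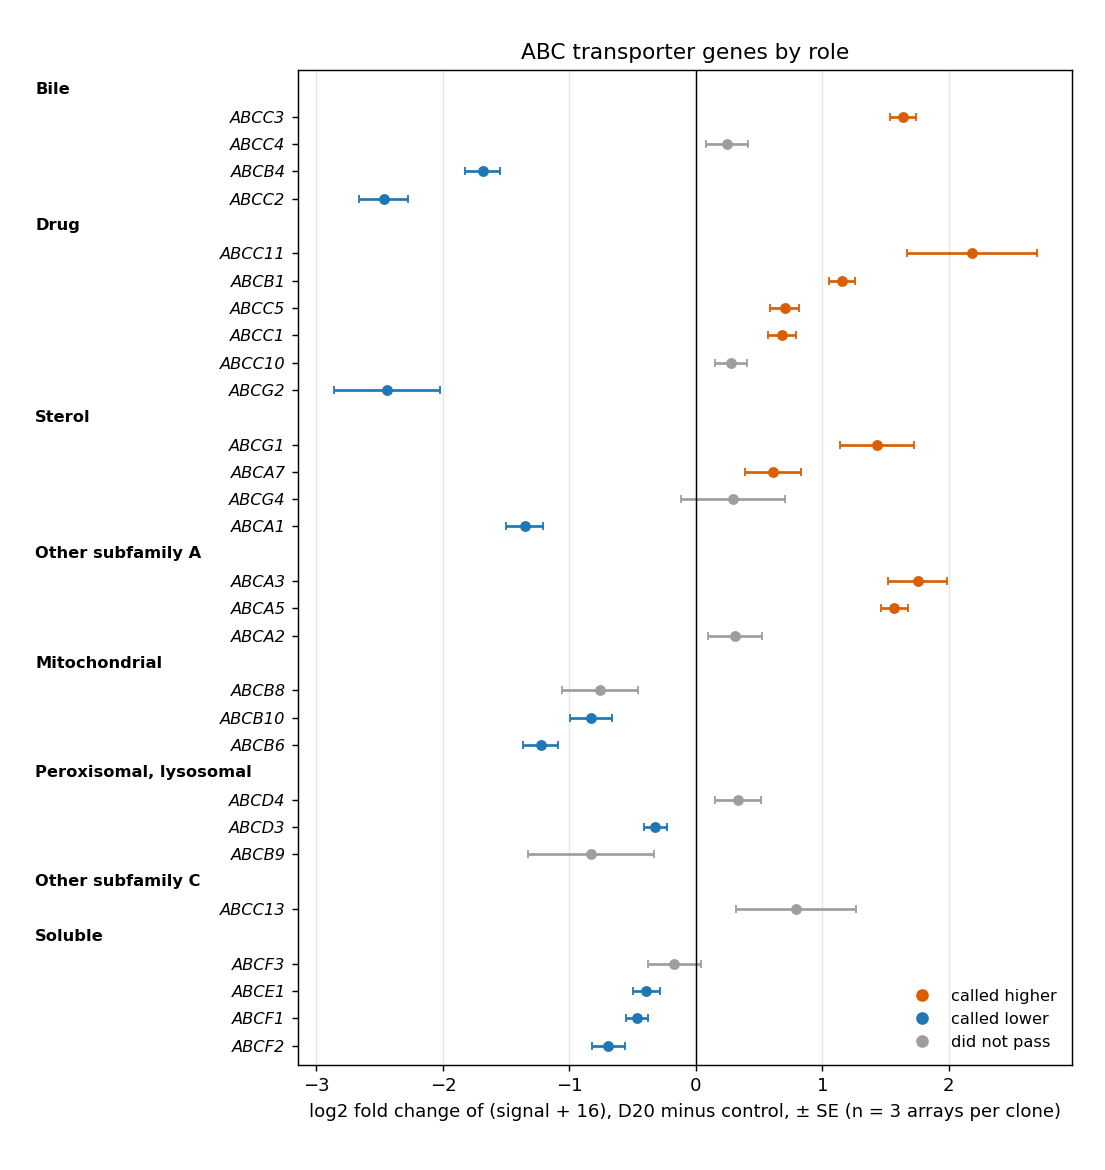
Log2 fold change of (signal + 16), D20 minus control (horizontal axis), with standard error over 3 arrays per clone, for the 28 tested ABC genes ordered by role. Orange points were called higher, blue points lower and grey points did not pass. ABCC11 (2.18) lies farthest to the right and ABCC2 (-2.47) farthest to the left. ABCC11 was bright enough to be tested only with the help of its D20 arrays.

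Bile, drug and sterol transporters each held members that rose and members that fell. Of 4 tested bile transporters 1 rose and 2 fell, with a median log2 fold change of -0.72. Of 6 drug transporters 4 rose and 1 fell, with a median of 0.69, and of 4 sterol transporters 2 rose and 1 fell, with a median of 0.45. ABCC11, counted among the drug transporters that rose, was tested only with the help of its D20 arrays. Among all genes tested 23.7% were called higher and 20.8% lower. Differences between these groups were not tested, and the groups are small. Where a gene may belong to several groups, bile transporters had 2 higher and 3 lower of 6 tested. Drug transporters then had 5 higher and 2 lower of 9, and sterol transporters 3 higher and 1 lower of 6.

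**Figure D2:**
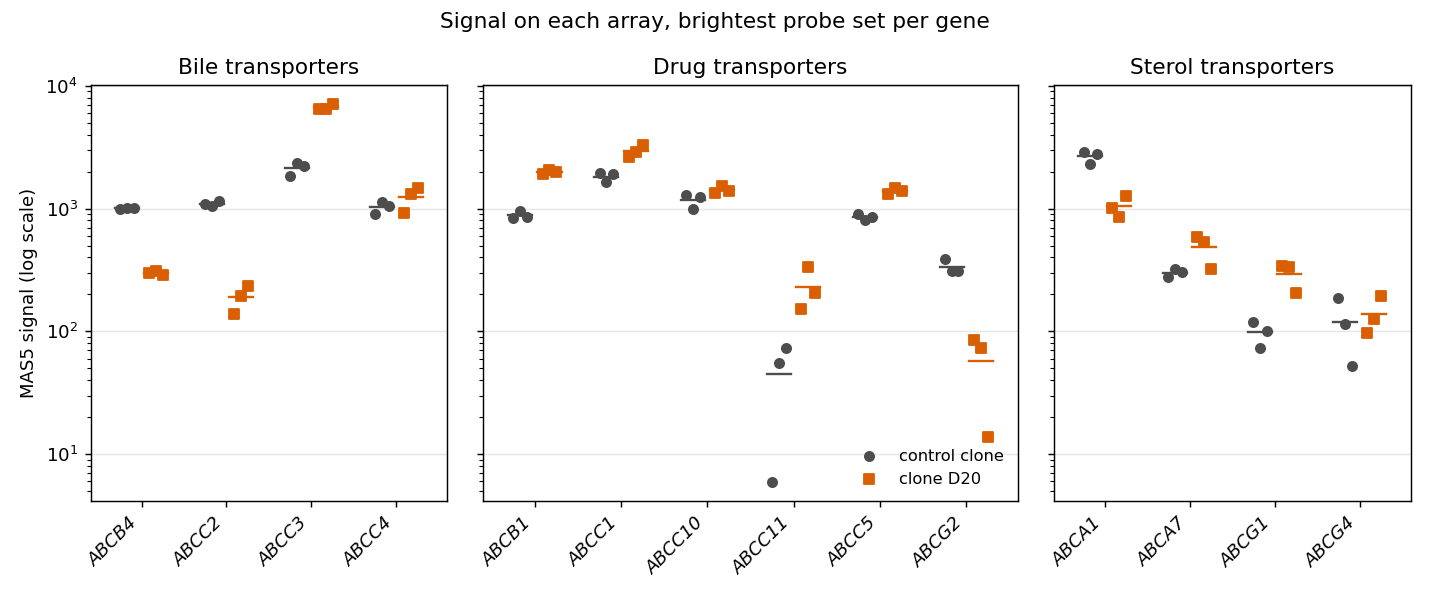
MAS5 signal (log scale) of each array for the tested bile, drug and sterol transporters, with grey circles for the control clone, orange squares for D20 and bars for the mean of 3 arrays. The clones stand apart for ABCB4, ABCC2 and ABCC3 and for all 6 drug transporters, and overlap for ABCC4 and ABCG4.

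Among the bile transporters, pumps of the canalicular membrane were lower in D20 and a pump of the blood side was higher. ABCC2 (MRP2), which exports bilirubin glucuronides and other conjugates into bile, had signals of 1096, 1042 and 1157 on the control arrays and 137, 194 and 236 on the D20 arrays. Every D20 array was far below every control array, the mean signal was 5.81-fold lower, and the log2 fold change was -2.47 ± 0.19 (SE; limma, Benjamini-Hochberg adjusted p = 5.6e-07). ABCB4 (MDR3), which flips phosphatidylcholine into the canalicular leaflet, had signals of 983, 1004 and 1016 in the control and 299.7, 312 and 289 in D20. The arrays within each clone lay close together, and ABCB4 fell by 1.69 ± 0.14 (SE) on the log2 scale (limma, Benjamini-Hochberg adjusted p = 9.5e-07). Its second tested probe set was dimmer and passed only narrowly (-1.55, limma, Benjamini-Hochberg adjusted p = 0.048), with D20 array B (70.2) close to control array B (72.5). ABCC3 (MRP3), which sends organic anions and conjugates back to the blood, had signals of 1845, 2369 and 2232 in the control and 6445, 6493 and 7117 in D20. It rose 3.11-fold, with a log2 fold change of 1.64 ± 0.10 (SE; limma, Benjamini-Hochberg adjusted p = 9.1e-08). Of its 4 further tested probe sets 3 were called higher, at 1.20 to 2.14, and the dimmest, the one left when probe sets able to match several transcripts were set aside, was at 0.54 (adjusted p = 0.093). ABCC4 (MRP4), a further pump of the blood side, had 897, 1136 and 1052 in the control and 921, 1320 and 1472 in D20. These overlapped, and its log2 fold change of 0.24 ± 0.17 (SE) did not pass the test (limma, Benjamini-Hochberg adjusted p = 0.28). It passed without D20 replicate A, at 0.44 (limma, Benjamini-Hochberg adjusted p = 0.037). ABCB11, the bile salt export pump, was too dim to be tested, at 9.8, 32.0 and 28.9 in the control and 3.1, 10.0 and 8.3 in D20.

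The ABCC2 start region is shown because ABCC2 and ABCG2 had the largest falls in the family, and only ABCC2 has a single listed start. RefSeq's promoter table (GRCh38.p14) listed a start for 33 of the 42 members, and of the 11 called members that changed at least 2-fold it gave 1 start for 5, several for 3 and none for 3. For those with 1 start the 250 bases before it are printed 5' to 3' on the strand of the gene. Capitals mark matches to motifs searched on both strands, and no matches overlapped in the windows printed. The TATA box was searched as TATAAA. The CCAAT box was searched by those letters and the GC box as GGGCGG. The E-box was searched as CACGTG, and an element bound by nuclear receptors as AGGTCA. The ABCC2 window, chr10:99782390-99782639 on the plus strand, held 1 TATAAA, at 236 to 231 bases before the start, and none of the other motifs.
ABCC2: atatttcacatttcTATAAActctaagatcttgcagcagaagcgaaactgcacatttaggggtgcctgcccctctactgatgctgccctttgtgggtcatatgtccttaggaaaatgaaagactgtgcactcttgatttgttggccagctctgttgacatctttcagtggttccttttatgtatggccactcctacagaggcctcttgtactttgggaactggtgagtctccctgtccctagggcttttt
Of 35116 windows of this length in the table, 10.7% held TATAAA, 32% CCAAT, 42.6% GGGCGG, 6.34% CACGTG and 12.1% AGGTCA. A match describes letters only, and no match says only that these letters are not in this window.

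Of the drug transporters as grouped here, those of subfamilies B and C that passed the test rose and ABCG2 fell. This depends on the grouping, since ABCC2 of subfamily C (-2.47) was placed with the bile transporters only. When genes could belong to several groups, the drug transporters included ABCC2, with 5 higher and 2 lower of 9. ABCB1 (P-glycoprotein, MDR1), which extrudes many hydrophobic drugs, had signals of 845, 947 and 856 in the control and 1925, 2062 and 1966 in D20. All D20 arrays lay above all control arrays, and it rose 2.25-fold, a log2 fold change of 1.16 ± 0.11 (SE; limma, Benjamini-Hochberg adjusted p = 2.5e-06), with its second tested probe set at 1.02 and called too. ABCG2 (BCRP), which exports drugs and urate, had signals of 389.6, 312 and 308 in the control and 84.6, 73.3 and 13.8 in D20. D20 array C was well below the others of that clone, and ABCG2 fell by 2.44 ± 0.42 (SE) on the log2 scale (limma, Benjamini-Hochberg adjusted p = 5.3e-04), and by 1.77 with a pseudocount of 64. ABCC1 (MRP1), which exports glutathione conjugates, had 1931, 1632 and 1894 in the control and 2606, 2879 and 3301 in D20. Its arrays did not overlap between clones, with a log2 fold change of 0.68 ± 0.11 (SE; limma, Benjamini-Hochberg adjusted p = 3.7e-04), and its second tested probe set was at 0.36 and did not pass. ABCC5 (MRP5), which exports cyclic nucleotides and nucleotide analogues, had 908, 802 and 857 in the control and 1322, 1484 and 1401 in D20. Its brightest probe set gave 0.70 ± 0.11 (SE; limma, Benjamini-Hochberg adjusted p = 3.2e-04), but a further probe set was called in the other direction (-0.98), and the mean of its probe sets was 0.07 (adjusted p = 0.79). With probe sets able to match several transcripts set aside, ABCC5 was at 0.50 (limma, Benjamini-Hochberg adjusted p = 0.11). ABCC11 (MRP8), known for the earwax type, was dim in the control at 5.9, 55.2 and 73.7 and had 153, 334 and 205 in D20. The arrays of each clone were spread widely but did not overlap, and the log2 fold change was 2.18 ± 0.51 (SE; limma, Benjamini-Hochberg adjusted p = 0.0047). It was 1.45 with a pseudocount of 64, 2.84 with a pseudocount of 1, and 1.56 without control replicate A. ABCC11 passed the filter on dim probe sets only with the help of its D20 arrays. ABCC10 (MRP7) had 1297, 987 and 1237 in the control and 1334, 1539 and 1383 in D20. Its D20 arrays all lay above the control arrays, but by little, and 0.28 ± 0.13 (SE) did not pass (limma, Benjamini-Hochberg adjusted p = 0.11), though it did with spike-in scaling (0.50, adjusted p = 0.0071). ABCB5 was too dim to be tested, between 17.3 and 48.2 on the 6 arrays.

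ABCB1 and ABCB4 are next to each other in the RefSeq order of protein-coding genes, and their transcripts moved in opposite directions. The 20 tested genes around ABCB4, 10 on each side, had a median log2 fold change of -0.07, with 2 higher and 5 lower. Those around ABCB1 had -0.18, with 1 higher and 6 lower, where 23.7% of all genes tested were called higher and 20.8% lower. These 2 stretches share nearly all their genes, and each counts the other of the 2 members. A probe set annotated to both genes was not used for either.

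Of the sterol transporters, ABCA1 fell and ABCG1 rose. ABCA1, which loads cholesterol and phospholipid onto apolipoprotein A-I, had signals of 2907, 2292 and 2787 in the control and 1011, 848 and 1261 in D20. It was 2.56-fold lower with no overlap of arrays, a log2 fold change of -1.35 ± 0.14 (SE; limma, Benjamini-Hochberg adjusted p = 9.9e-06), and its second tested probe set was called lower as well (-1.02). ABCG1, which moves cholesterol towards high-density lipoprotein, had 119, 73.1 and 101.5 in the control and 343, 336 and 204 in D20. Its brightest probe set rose 3.01-fold, a log2 fold change of 1.43 ± 0.29 (SE; limma, Benjamini-Hochberg adjusted p = 0.0018). Its 2 further tested probe sets were dim and not called, at 0.39 and -0.32. The mean of its probe sets, 0.50, did not pass (limma, Benjamini-Hochberg adjusted p = 0.24), nor did the one left when probe sets able to match several transcripts were set aside (-0.32, adjusted p = 0.65), so the rise rests on 1 probe set. ABCA7, a phospholipid transporter close to ABCA1, had 278, 321 and 304 in the control and 588, 533 and 325 in D20. D20 array C was only just above the highest control array, and 0.61 ± 0.22 (SE) passed narrowly (limma, Benjamini-Hochberg adjusted p = 0.045). The ABCA7 call was lost in 9 of its 16 alternatives, among them leaving out control replicate A (0.56), B (0.66) or C (0.62) or D20 replicate A (0.45) or B (0.52). ABCG4, a close relative of ABCG1, had 187, 115.5 and 52.6 in the control and 96.9, 126 and 195 in D20, with overlapping arrays and a log2 fold change of 0.29 ± 0.41 (SE; limma, Benjamini-Hochberg adjusted p = 0.63). ABCG5 and ABCG8, which together form the exporter of plant sterols and cholesterol into bile and are neighbouring genes, were too dim to be tested, with medians of 9.85 and 8.85 over the 6 arrays.

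Of the 5 windows printed here, that of ABCA1 had the most motif matches. Its window, chr9:104928156-104928405 on the minus strand, is shown for comparison with that of ABCC2. It held GGGCGG at 189 to 184, 163 to 158 and 97 to 92 bases before the start, CACGTG at 147 to 142 and TATAAA at 31 to 26.
ABCA1: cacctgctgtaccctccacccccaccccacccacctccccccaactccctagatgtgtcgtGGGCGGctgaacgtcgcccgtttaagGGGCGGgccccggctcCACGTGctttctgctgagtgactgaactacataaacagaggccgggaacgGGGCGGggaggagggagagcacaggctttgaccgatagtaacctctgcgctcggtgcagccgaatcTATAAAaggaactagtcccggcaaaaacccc

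The other subfamily A members that could be tested were higher in D20 or did not pass the test. ABCA3, a phospholipid transporter known from lung surfactant, had signals of 98.2, 126 and 113 in the control and 425, 492 and 343 in D20. Arrays of the clones were far apart, and it rose 3.73-fold, with a log2 fold change of 1.75 ± 0.23 (SE; limma, Benjamini-Hochberg adjusted p = 6.3e-05). ABCA5, a lysosomal and endosomal member, had 1115, 967 and 1177 in the control and 3300.2, 3385 and 3044 in D20. It rose 2.99-fold, a log2 fold change of 1.57 ± 0.11 (SE; limma, Benjamini-Hochberg adjusted p = 1.7e-07), with its second tested probe set at 0.88 and called higher. ABCA2 had 254, 332 and 271 in the control and 344, 452 and 289 in D20, and did not pass (0.31 ± 0.21 SE; limma, Benjamini-Hochberg adjusted p = 0.29). Its second tested probe set was at -1.10, with 83.2, 127 and 72.1 in the control and 44.1, 25.1 and 35.3 in D20. These arrays did not overlap, but it did not pass either (limma, Benjamini-Hochberg adjusted p = 0.072). The windows of both genes that rose are shown beside those of the lower ABCC2 and ABCA1. ABCA3 (chr16:2340729-2340978, minus strand) held 1 GGGCGG at 69 to 64 bases before the start, and ABCA5 (chr17:69327134-69327383, minus strand) held 1, on the opposite strand, at 99 to 94.
ABCA3: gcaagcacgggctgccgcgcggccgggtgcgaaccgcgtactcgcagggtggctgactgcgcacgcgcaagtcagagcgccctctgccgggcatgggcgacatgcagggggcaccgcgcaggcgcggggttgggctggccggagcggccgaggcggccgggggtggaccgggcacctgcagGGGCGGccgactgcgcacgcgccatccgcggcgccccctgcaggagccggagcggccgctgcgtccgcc
ABCA5: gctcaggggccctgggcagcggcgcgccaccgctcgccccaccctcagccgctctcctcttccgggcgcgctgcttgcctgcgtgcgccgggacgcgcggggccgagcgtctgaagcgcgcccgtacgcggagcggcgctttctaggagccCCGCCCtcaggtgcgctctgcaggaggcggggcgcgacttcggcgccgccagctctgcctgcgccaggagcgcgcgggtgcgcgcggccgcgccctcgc
ABCA4, ABCA6, ABCA8, ABCA9, ABCA12 and ABCA13 were too dim to be tested.

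Of the 3 tested mitochondrial members 2 fell in D20, where 20.8% of all genes tested were called lower. ABCB6, a porphyrin transporter linked to haem synthesis and also found in other membranes, had signals of 925, 849.5 and 844 in the control and 358, 384 and 349.5 in D20. It was 2.40-fold lower with tight arrays in both clones, a log2 fold change of -1.23 ± 0.14 (SE; limma, Benjamini-Hochberg adjusted p = 1.7e-05). ABCB10, needed for haem synthesis in the inner membrane, had 1576, 1163 and 1603 in the control and 899, 634.5 and 898 in D20. It fell by 0.83 ± 0.16 (SE) on the log2 scale (limma, Benjamini-Hochberg adjusted p = 0.0015). ABCB8, an inner-membrane member, had 269, 187 and 205 in the control and 164, 133 and 82.4 in D20. Its arrays did not overlap, but -0.76 ± 0.30 (SE) did not pass (limma, Benjamini-Hochberg adjusted p = 0.064). It passed without D20 replicate A (-0.95), with quantile normalization (-0.89), with median centring (-0.88) and with a stricter filter (-0.76, limma with Benjamini-Hochberg, adjusted p = 0.029 to 0.046), and its second tested probe set was at 0.25. The ABCB6 window (chr2:219218959-219219208, minus strand) is shown as that of a lower gene outside the bile and sterol groups. It held GGGCGG on the opposite strand at 166 to 161 bases before the start and on the gene's strand at 46 to 41, CACGTG at 156 to 151 and CCAAT at 73 to 69.
ABCB6: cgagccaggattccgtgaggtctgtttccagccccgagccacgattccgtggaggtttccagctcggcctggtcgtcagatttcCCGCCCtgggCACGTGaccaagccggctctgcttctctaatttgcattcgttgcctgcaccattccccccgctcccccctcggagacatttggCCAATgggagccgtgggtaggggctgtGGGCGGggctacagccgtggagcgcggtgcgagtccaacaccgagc
Of the 5 windows printed 4 held GGGCGG, 2 CACGTG, 2 TATAAA, 1 CCAAT and none AGGTCA.

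Of 4 soluble members 3 fell by small steps, as did the peroxisomal ABCD3, where 20.8% of all genes tested were called lower. ABCE1, which splits ribosomes for recycling, had a log2 fold change of -0.39, ABCF1, a translation factor, -0.46, ABCF2 -0.69 and ABCD3, which brings branched fatty acids and bile acid precursors into the peroxisome, -0.32. Signals of ABCF1 were 5272, 5719 and 5273 in the control and 3790.3, 4273 and 3746 in D20. Those of ABCD3 were 8754, 7644 and 8827 in the control and 7250.4, 6246 and 6699 in D20. For these 4 genes arrays of the clones did not overlap, and the adjusted p-values were 8.9e-04 to 0.013 (limma, Benjamini-Hochberg). Spike-in scaling ended the calls of ABCD3 (-0.10, adjusted p = 0.52), ABCE1 (-0.17, adjusted p = 0.32) and ABCF1 (-0.24, adjusted p = 0.10; limma, Benjamini-Hochberg). ABCE1 and ABCD3 also lost the call without the variance trend (adjusted p = 0.079 and 0.11), and ABCD3 with quantile normalization (-0.20, adjusted p = 0.072), without control replicate A (-0.29, adjusted p = 0.060) and without control replicate C (-0.28, adjusted p = 0.074; limma, Benjamini-Hochberg). ABCF2 was not called on the probe set left when those able to match several transcripts were set aside (-0.35, adjusted p = 0.28), while 2 of its 3 further tested probe sets were called lower. ABCF3 (-0.17, adjusted p = 0.58), the lysosomal ABCD4 (0.33, adjusted p = 0.18) and ABCB9 (-0.83, adjusted p = 0.23), and ABCC13 (0.79, adjusted p = 0.22), a gene without a known working product, did not pass (limma, Benjamini-Hochberg). ABCD4 passed with spike-in scaling (0.55, adjusted p = 0.043; limma, Benjamini-Hochberg).

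Together 14 members were too dim to be tested, ABCC8 and ABCC9, the sulfonylurea receptors of potassium channels, ABCC12 and the peroxisomal ABCD2 besides those named above. Their means over 6 arrays lay between 6.30 and 51.5, none had arrays of the clones apart, and the highest single value was 173, for ABCA4 on D20 array B. One tested member, ABCC13, had a control mean below the filter level of 43.2 and so passed with the help of its D20 arrays.

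**Figure D3:**
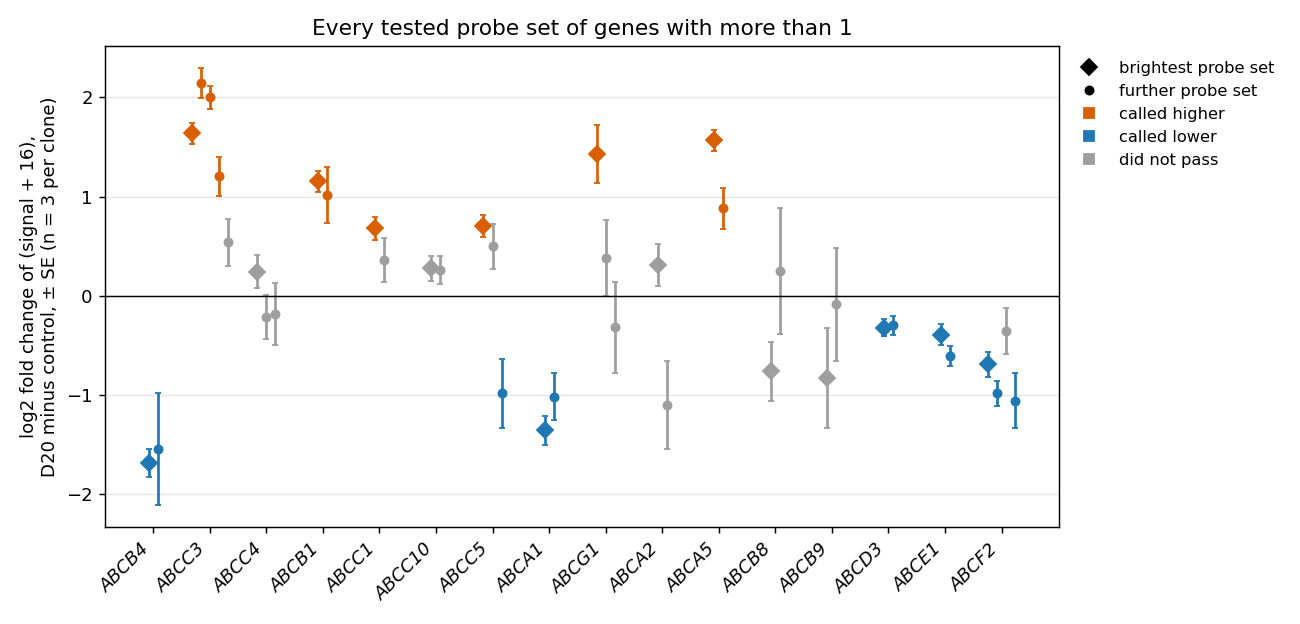
Log2 fold change of (signal + 16), D20 minus control, with standard error over 3 arrays per clone (vertical axis) for every tested probe set of the ABC genes with more than 1; diamonds are the brightest probe set and circles the others, coloured by call. Of the 11 called genes shown, 6 had every further probe set called in the same direction, and ABCC5 had 1 called the other way.

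Further probe sets were compared with the call of the brightest one, for called members only. Of the 19 called members 11 had further tested probe sets, 18 in all, of which 11 were called in the same direction and 1, of ABCC5, in the other. Of all probe sets tested 36.5% were called. All further tested probe sets of ABCB4, ABCB1, ABCA1, ABCA5, ABCD3 and ABCE1 were called the same way, that of ABCB4 only narrowly. Probe sets of a gene share its RNA and arrays and are not replicates.

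Genes on either side were described by 20 tested genes, the 10 nearest on each side in RefSeq order, against 44.5% called among all genes. Their median log2 fold change had the sign of the member's own for ABCF2 (-0.43, 8 lower and 0 higher), ABCB8 (-0.47, 10 lower and 3 higher), ABCA1 (-0.40, 10 lower and 4 higher) and ABCC11 (0.47, 10 higher and 1 lower). It had the other sign for ABCA5 (-0.21, 6 lower and 2 higher), ABCA2 (-0.27, 8 lower and 1 higher) and ABCF1 (0.22, 6 higher and 1 lower). The sign of ABCA2 and of ABCB8 is that of the brightest probe set, and neither was called. Around ABCC2 (-0.08), ABCC3 (-0.09), ABCG2 (0.15), ABCA3 (0.00) and ABCB6 (-0.10) the medians lay between -0.10 and 0.15. These genes were chosen after their values were seen. The part of these stretches in the results was not tested.

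Of 14 tested carriers and bile acid genes, which work with the bile transporters, 3 rose, 7 fell and 4 were not called, and at least 2-fold 2 rose and 4 fell. Among all genes 23.7% rose and 20.8% fell, and at least 2-fold 10.8% rose and 6.57% fell. For partner genes, log2 fold changes of D20 minus control stand in brackets after the signals. BAAT, which joins bile acids to glycine or taurine, had signals of 103, 85.1 and 114 in the control and 2228, 2178 and 2304 in D20 (4.28 ± 0.16 SE; limma, Benjamini-Hochberg adjusted p = 7.8e-10). SLC51A and SLC51B encode partner subunits of a bile acid exporter of the blood side. SLC51A had 33.9, 5.4 and 12.5 in the control and 197, 149.6 and 208 in D20 (2.67 ± 0.46 SE; limma, Benjamini-Hochberg adjusted p = 5.0e-04), and its control mean lay below the filter level, so that the value was 1.62 with a pseudocount of 64 and 3.67 with 1. SLC51B had 610.1, 739.7 and 688 in the control and 50.6, 81.5 and 7.5 in D20 (-3.70 ± 0.42 SE; limma, Benjamini-Hochberg adjusted p = 1.7e-05; -3.10 without D20 replicate C, -2.81 with a pseudocount of 64 and -4.36 with 1), so the 2 subunits moved in opposite directions. SLCO1B3, an organic anion uptake carrier, had 261, 237 and 272 in the control and 72.7, 19.2 and 71.4 in D20 (-2.07 ± 0.39 SE; limma, Benjamini-Hochberg adjusted p = 9.5e-04), or -1.47 with a pseudocount of 64.

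Of 11 tested nuclear receptors and other factors that control ABC genes 3 rose and 6 fell, where 23.7% of all genes rose and 20.8% fell. NR1H3 (LXR-alpha), the oxysterol receptor that activates ABCA1 and ABCG1, had 1448, 1818 and 1479 in the control and 455, 284 and 274 in D20 (-2.21 ± 0.19 SE; limma, Benjamini-Hochberg adjusted p = 1.2e-06). NR5A2 (LRH-1), a regulator of bile acid genes, had 1048, 985 and 1063 in the control and 4679.6, 4456 and 4476 in D20 (2.12 ± 0.09 SE; limma, Benjamini-Hochberg adjusted p = 3.2e-09). AHR, the aryl hydrocarbon receptor, had 3689, 3531 and 3694 in the control and 6691, 8259 and 9064 in D20 (1.12 ± 0.11 SE; limma, Benjamini-Hochberg adjusted p = 3.2e-06). VDR, the vitamin D receptor, had 39.1, 129 and 87.9 in the control and 153, 159 and 284 in D20 (1.14 ± 0.40 SE; limma, Benjamini-Hochberg adjusted p = 0.040), and lost the call without the variance trend, with no filter, with quantile normalization or median centring and without any single array except control B. The VDR value was 0.75 without control replicate A, and 2.06 with a pseudocount of 64, where another of its probe sets was the brightest.

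Of 12 tested sterol partners 5 fell and none rose, a share called near the 44.5% of all genes, with a median log2 fold change of -0.32 beside 0.04 over all genes. With spike-in scaling 2 of them rose and 4 fell. SOAT2, which esterifies cholesterol in liver and gut, had 241, 368 and 387 in the control and 8.6, 7.1 and 18.5 in D20 (-3.66 ± 0.39 SE; limma, Benjamini-Hochberg adjusted p = 9.2e-06), with a D20 mean below the filter level and values of -2.38 with a pseudocount of 64 and -4.83 with 1. APOA1, the acceptor of lipid from ABCA1, had 11133, 12565 and 12879 in the control and 1241, 1364 and 1013 in D20 (-3.33 ± 0.11 SE; limma, Benjamini-Hochberg adjusted p = 4.2e-10), and -1.66 on the probe set left when those able to match several transcripts were set aside. NPC1L1, which takes cholesterol up from bile and gut, had 1336, 1344 and 1549.9 in the control and 236, 242 and 258 in D20 (-2.44 ± 0.14 SE; limma, Benjamini-Hochberg adjusted p = 3.8e-08). SCARB1, the receptor for high-density lipoprotein, had 3007, 5012 and 3591 in the control and 1895, 1909 and 1672 in D20 (-1.05 ± 0.15 SE; limma, Benjamini-Hochberg adjusted p = 1.3e-04).

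**Figure D4:**
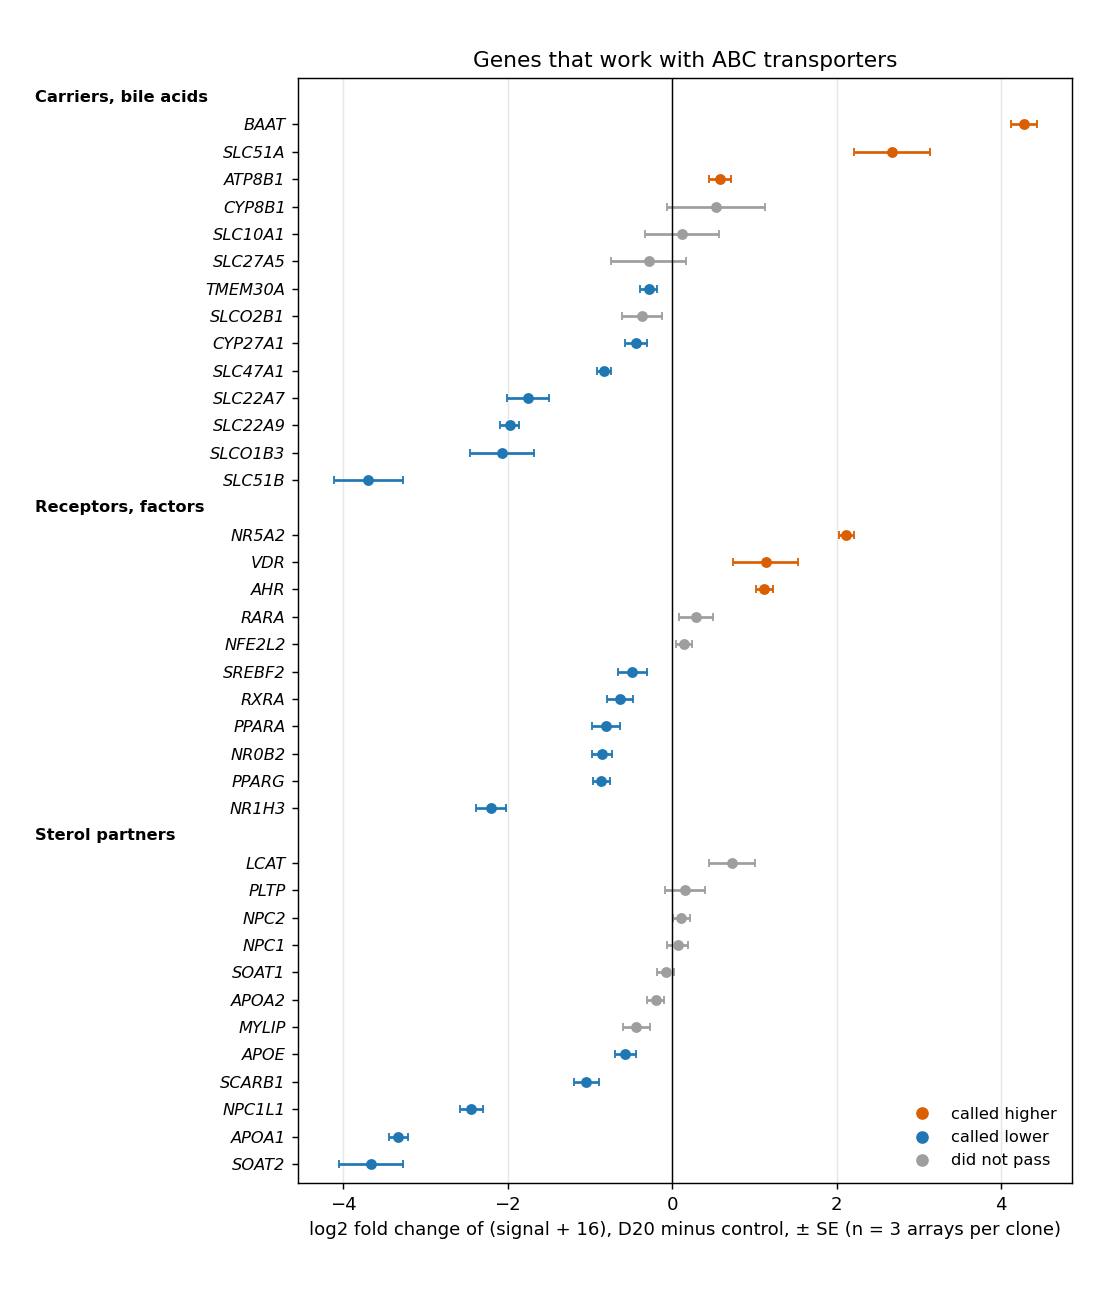
Log2 fold change of (signal + 16), D20 minus control (horizontal axis), with standard error over 3 arrays per clone, for tested carriers and bile acid genes, nuclear receptors and factors, and sterol partners. Orange points were called higher, blue points lower and grey points did not pass; BAAT (4.28) and SLC51B (-3.70) lie at the ends.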

How the data were processed

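RNA of 6 samples was hybridised to HG-U133 Plus 2.0 arrays. The deposited values are intensity values, MAS5 signals that were not log-transformed, made by the authors with MAS5 per the submitters' processing notes. Its version is not given in the sources used here, and no detection calls were used. Of 54675 probe sets, 62 controls and 21845 dim ones (the lowest 40% by mean of log2(signal + 16)) were left out, and 32768 were tested with limma 3.58.1 in R 4.3.3 (lmFit, eBayes with a variance trend, two-sided, Benjamini-Hochberg over all of them, threshold 0.05), all 6 arrays and no covariate. The fit was tested on simulated data. A pseudocount of 16 understates changes of dim genes. Genes were named by the platform annotation, with other symbols updated through RefSeq (GRCh38.p14), which also gave gene order: 41091 probe sets had 1 symbol and 1801 several, which name no gene here. Some listed genes are not reported here. Array values are given for tested bile, drug and sterol transporters and members called at 2-fold or more; those of ABCA2, ABCB8, ABCB10, ABCB11, ABCD3 and ABCF1 were added after they were seen. Of each partner list up to 4 called genes with the largest changes are named. Members and lists were chosen with earlier results of these data known. Alternatives were pseudocounts, filters, scalings, no variance trend, the array letter as a block, probe set choice and leaving out each array; those of partner genes were added after seeing the data.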

Additional observations from a re-analysis of the deposited data

How the results depend on the processing

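Of the 19 called ABC genes 11 kept their direction and call in each of the 15 to 17 alternatives that gave a value, and 8 (ABCC3, ABCC5, ABCG1, ABCA7, ABCD3, ABCE1, ABCF1 and ABCF2) lost the call in at least 1. Leaving out 1 array at a time gave 8 to 9 members higher and 9 to 11 lower. No pairing of the samples by array letter was seen. The correlations of deviations for A, B and C were -0.02, 0.05 and 0.01, and only B correlated best with its own letter. Such correlations cannot show that the letters carry no pairing. With the replicate block 9 ABC genes were called higher and 10 lower, and 6658 probe sets higher and 5899 lower against 6397 and 5555 without it. Without probe sets ending in _s_at or _x_at, where 21056 probe sets and 20 members were tested, 3751 probe sets were higher and 3353 lower, 4 members were higher, 3 drug transporters and 1 sterol transporter were called, and ABCG1 was at -0.32. With the lowest 60% left out 3 drug transporters were called of the 4 tested. With overlapping lists 5 bile, 7 drug and 4 sterol transporters were called. Spike-in scaling gave 3341 lower probe sets, and ABCF3 was at 0.045. Leaving out 1 array, ABCF3 ranged from -0.33 to 0.080, ABCG4 from -0.12 to 0.66, ALB from -0.051 to 0.078, GAPDH from -0.054 to 0.15 and ABCC6P1 from -0.042 to 0.24, and none of these was called in the full data. With the mean of probe sets ABCC4 was at -0.049, ABCA2 at -0.40, ALB at -0.44 (called lower) and GAPDH at -0.018. ALB was at -2.39 (called lower) without _s_at and _x_at probe sets, at -0.062 with quantile normalization and at -0.12 with median centring, which put GAPDH at -0.082 and ABCC6P1 at -0.018. Beyond what the alternatives' construction shows, the causes were not tested. Dim genes such as ABCC11 and SLC51A lie near the background and are the least precise.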

Other observations

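ABC proteins that carry other symbols were outside the family as defined by its names. TAP1 and TAP2, the subunits of the transporter that brings peptides to MHC class I molecules, were both called higher in D20. TAP1 had signals of 109.7, 109.9 and 21.5 in the control and 303, 354 and 299 in D20 (log2 fold change 1.99 ± 0.42 SE; limma, Benjamini-Hochberg adjusted p = 0.0022), and TAP2 345 ± 7.43 (SD, n = 3) in the control and 544 ± 54.9 in D20 (0.63 ± 0.16 SE; limma, Benjamini-Hochberg adjusted p = 0.0075). TAP2 was not called with the mean of its probe sets (0.45; limma, Benjamini-Hochberg adjusted p = 0.11). CFTR, the chloride channel of the family, was too dim to be tested. Among pseudogenes, ABCA17P, the tested gene next to ABCA3, had 45.3, 42.8 and 39.9 in the control and 103, 99.3 and 121.5 in D20 (1.08 ± 0.39 SE; limma, Benjamini-Hochberg adjusted p = 0.045), a call lost with no filter, with a pseudocount of 1, with quantile normalization or median centring, with the replicate block and on leaving out any 1 array, and its control mean lay below the filter level. ABCA11P (0.39, adjusted p = 0.073) and ABCC6P1 (0.10, adjusted p = 0.62) did not pass (limma, Benjamini-Hochberg). The housekeeping gene ACTB was at 0.28 (adjusted p = 0.040) and GAPDH at 0.04 (adjusted p = 0.80; limma, Benjamini-Hochberg). ACTB lost its call in 9 of 16 alternatives, among them median centring, no filter and no variance trend.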
